A study of Homo sapiens with 10 samples.

Results

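The comparison described here set bortezomib-resistant HBL2 cells against bortezomib-resistant JEKO cells, 3 arrays labelled HBL2 BR against 2 labelled JEKO BR, out of the 10 Affymetrix arrays of the series. HBL2 and JEKO are established human mantle cell lymphoma lines. The labels describe the BR cells as made resistant by bortezomib, and the remaining arrays, 3 HBL2 PT and 2 JEKO PT, carry the letters PT alone and are taken here as the matched parental cells. No other agent is named for any group, and the dose and length of selection, the presence of drug at harvest and the number of clones behind each resistant line are not stated in the labels. Since both sides of the comparison were selected with the drug, a difference between them can have been present between the lines from the start or have come with selection. The difference between HBL2 PT and JEKO PT is therefore given beside it. RNA came from cells in log-phase growth, and the labels do not say whether the arrays of a group were separate cultures, so the p-values measure no more than the spread between these arrays, and that spread may be technical. Probe sets annotated to exactly 1 gene were used. The brightest one above the filter on low values stood for each of 14529 genes.

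Mantle cell lymphoma arises from mature B cells, and a translocation places cyclin D1 under immunoglobulin regulatory sequence. Bortezomib blocks the proteasome, the barrel-shaped protease that degrades ubiquitin-tagged proteins, by binding its chymotrypsin-like subunit PSMB5. Cells that make much protein, such as plasma cells, depend on this protease, and its inhibition raises unfolded protein, amino acid shortage and oxidative stress. B cells present peptides on MHC class II molecules, and lose those genes together with much of their B cell programme when they become plasma cells.

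Values are the authors' deposited array values, which run from 0 to 4.99. Each array has the same distribution, whose median is 0.73 and whose 75th percentile is 1.18. They behave like logarithms of a base that is not given in the sources used here, so differences are stated in deposited units and not as fold changes. Arrays of a group resembled each other more than arrays of different lines, with Pearson r across genes of 0.9498 to 0.9621 among HBL2 BR arrays, 0.9544 between the JEKO BR arrays and 0.8912 to 0.902 between the lines. The GAPDH control probe sets had their widest gap between the 5′ and 3′ ends on JEKO BR 2, at -0.64, against -0.31 on JEKO BR 1 and -0.38 to -0.17 on the HBL2 BR arrays. All 6 B cell marker genes measured, of 7 listed, were at or above the array median on every BR array. Of the mantle cell lymphoma markers, CCND1, by the brighter of its probe sets, and SOX11 were above it in both lines. CD5 was below the median on all 3 HBL2 BR arrays, at 0.65, 0.45 and 0.55, against 0.95 and 0.70 on the JEKO BR arrays.

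A gene was called where the adjusted p from limma across all genes was below 0.05. Between resistant HBL2 and resistant JEKO cells 4083 of 14529 genes were called (28.1%), with 2039 higher in HBL2 BR (14.0%) and 2044 higher in JEKO BR (14.1%). Without JEKO BR 2 the number called was 2444. The arrays of the lines did not overlap for 7938 genes (54.6%), 4069 higher in HBL2 BR (28.0%) and 3869 higher in JEKO BR (26.6%), and 179 called genes (1.23%) differed by 1 unit or more. The median size of a called difference was 0.36. Bright genes were called more often, 36.1% of genes whose mean was at or above the 75th percentile against 19.3% of the others. Counts over lists below are to be read against these shares.

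Between the PT cells of the lines 3361 genes were called (23.1%), 2017 higher in HBL2 PT (13.9%) and 1344 higher in JEKO PT (9.25%). Of the 4083 genes called between the resistant cells, 1745 (42.7%) were also called in the same direction between the PT cells, 140 (3.43%) in the opposite direction and 2198 (53.8%) not at all. The sign of the difference was the same for 3302 (80.9%). A direct test of whether the line difference itself differed, the BR difference minus the PT difference, called 1266 genes (8.71%), 429 with the BR difference above the PT difference (2.95%) and 837 below it (5.76%). Of the 1266, 876 were among the 4083. Of these 876, 575 were not called between the PT cells, 365 higher in JEKO BR and 210 higher in HBL2 BR. Another 161 differed in the same direction in both, and the difference was wider between the resistant cells for 102 and narrower for 59. Without JEKO PT 1 or JEKO PT 2 the numbers called between the PT cells were 2015 and 1974. The direct test called 658 genes without JEKO BR 2, 696 without JEKO PT 1 and 832 without JEKO PT 2.

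**Figure D1:**
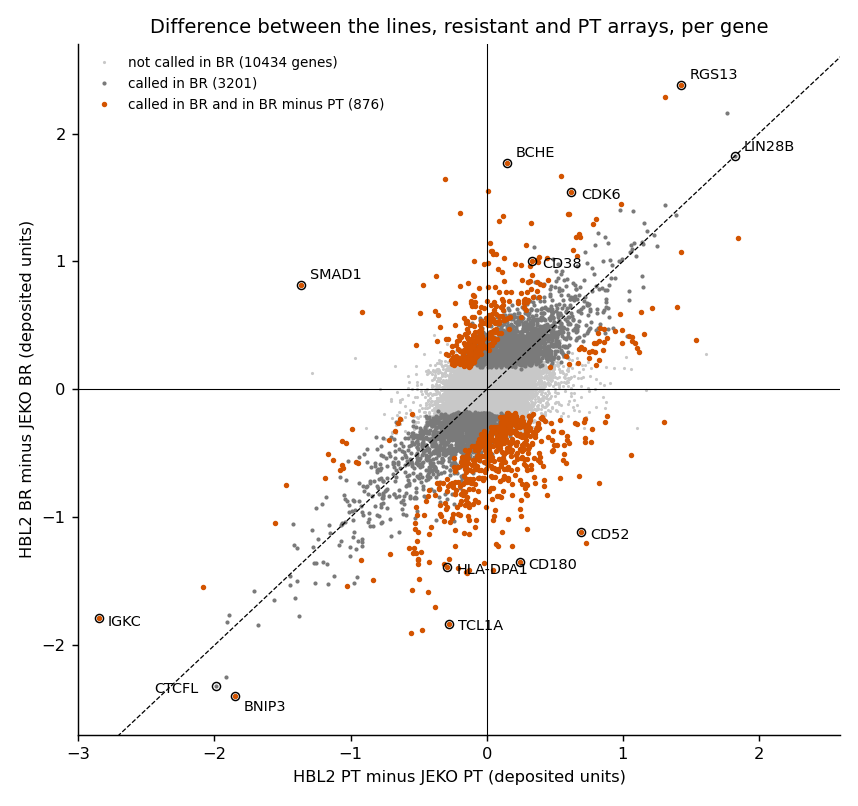
Each point is 1 gene, with the HBL2 PT minus JEKO PT difference on the horizontal axis and the HBL2 BR minus JEKO BR difference on the vertical axis, both in deposited units; grey points are genes not called in BR, or called in BR but not in the test of the BR difference minus the PT difference, orange points were called in both, and the dashed line marks equal differences. LIN28B and CTCFL lie near the dashed line, while SMAD1, CD180 and CD52 lie on opposite sides of zero on the axes.

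Among the genes named here and by the brightest probe set of each, the largest difference in favour of resistant HBL2 cells was at RGS13. A less bright probe set of CCND1 gave more, at 2.64. RGS13 is a regulator of G protein signalling known from germinal centre B cells. Its values were 2.79, 2.75 and 2.62 on the HBL2 BR arrays and 0.14 and 0.54 on the JEKO BR arrays, a difference of 2.38 ± 0.13 (SE, adjusted p = 2.63e-09). RGS13 already differed between the PT cells, by 1.43, and the difference was wider between the resistant cells, by 0.96, but by 0.55 with the median of its probe sets (adjusted p = 0.102), and the test of that widening did not call it on percentile ranks or normal scores (adjusted p = 0.668 and 0.339). MAGEA4, a cancer-testis antigen on the X chromosome, had 2.61, 2.69 and 2.53 on the HBL2 BR arrays and 0.39 and 0.27 on the JEKO BR arrays, and differed by 2.28 ± 0.10 (SE, adjusted p = 4.55e-10), with 1.31 in PT. LIN28B, which blocks maturation of let-7 microRNAs, had 2.42, 2.44 and 2.37 on the HBL2 BR arrays and 0.66 and 0.52 on the JEKO BR arrays. It differed by 1.82 between the resistant cells and by 1.82 between the PT cells. The long non-coding RNA TMEM132D-AS1 differed by 2.16 in BR and 1.77 in PT.

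CDK6, the kinase that cyclin D activates, had 2.03, 1.96 and 1.90 on the HBL2 BR arrays and 0.60 and 0.23 on the JEKO BR arrays. The JEKO BR arrays were below the array median, and the difference of 1.54 ± 0.12 (SE, adjusted p = 1.07e-07) was wider than the 0.62 between the PT cells, a widening that was not called on percentile ranks or normal scores (adjusted p = 0.407 and 0.329). BCHE, which encodes butyrylcholinesterase, had 2.07, 1.95 and 1.86 on the HBL2 BR arrays and 0.091 and 0.29 on the JEKO BR arrays, and OXCT1, the mitochondrial enzyme that lets cells burn ketone bodies, had 2.22, 2.30 and 2.12 on the HBL2 BR arrays and 0.69 and 0.45 on the JEKO BR arrays. Neither was called between the PT cells, where the differences were 0.15 and -0.31. HNRNPLL, an RNA-binding protein that governs splicing of CD45 in lymphocytes, differed by 1.55 ± 0.12 (SE, adjusted p = 8.3e-08) in BR and 0.0092 in PT. CHI3L1, a secreted chitinase-like protein, differed by 1.67, NLRP7 by 1.45, the axon guidance receptor ROBO1 by 1.44 and the translation termination factor GSPT2 by 1.40. Their PT differences were 0.55, 0.98, 1.31 and 0.98.

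On the JEKO side the largest difference by the same measure was at BNIP3, while a less bright probe set of IGKC gave -2.66. BNIP3 is a mitochondrial protein induced by low oxygen that acts in mitophagy. It had 2.71 and 2.79 on the JEKO BR arrays and 0.30, 0.42 and 0.33 on the HBL2 BR arrays, a difference of -2.40 ± 0.077 (SE, adjusted p = 1.49e-11), and was already -1.85 between the PT cells. CTCFL, a testis paralogue of the insulator protein CTCF also called BORIS, had 2.93 and 2.88 on the JEKO BR arrays and 0.62, 0.50 and 0.63 on the HBL2 BR arrays, with -2.32 in BR and -1.99 in PT. All 3 HBL2 BR arrays were below the array median for both genes. CRY1, a repressor of the circadian clock, had 2.01 and 2.07 on the JEKO BR arrays and 0.11, 0.049 and 0.50 on the HBL2 BR arrays, GPM6A, a neuronal membrane glycoprotein, differed by -1.77, and DPEP3 and PRSS21, both known from testis, by -2.24 and -1.77. The PT differences of these genes were -1.90, -1.89, -1.91 and -1.38.

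Several of the largest JEKO differences were in B cell genes. TCL1A, an activator of AKT expressed in naive and germinal centre B cells, had 3.02 and 3.02 on the JEKO BR arrays and 0.90, 1.24 and 1.41 on the HBL2 BR arrays. It differed by -1.84 ± 0.11 (SE, adjusted p = 5.06e-09) between the resistant cells and by -0.28 between the PT cells, where it was not called. FCMR, the receptor for IgM, had 2.23 and 2.48 on the JEKO BR arrays and 0.41, 0.46 and 0.55 on the HBL2 BR arrays, and AFF3, a nuclear protein of the lymphoid lineage, had 2.31 and 2.37 on the JEKO BR arrays and 0.11, 0.52 and 0.70 on the HBL2 BR arrays. Both differed less between the PT cells, by -0.48 and -0.56, and by -1.88 and -1.90 between the resistant cells. The 5 other probe sets of AFF3 that passed the filter gave smaller differences, of -0.75 to -0.27, and with the median of the probe sets its BR difference did not differ from the PT difference past the threshold (-0.29, adjusted p = 0.217). IGKC, the kappa light chain, differed by -1.79 in BR and -2.85 in PT, but the direction of this change depended on the probe sets. With the median over its probe sets the BR difference minus the PT difference was -0.18 (limma, adjusted p = 0.498). It was -2.47 where probe sets that may bind several genes were left out (limma, adjusted p = 3e-09). LAMP5 differed by -1.84 and FADS3, a fatty acid desaturase family member, by -1.70, against -1.68 and -0.38 in PT.

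**Figure D2:**
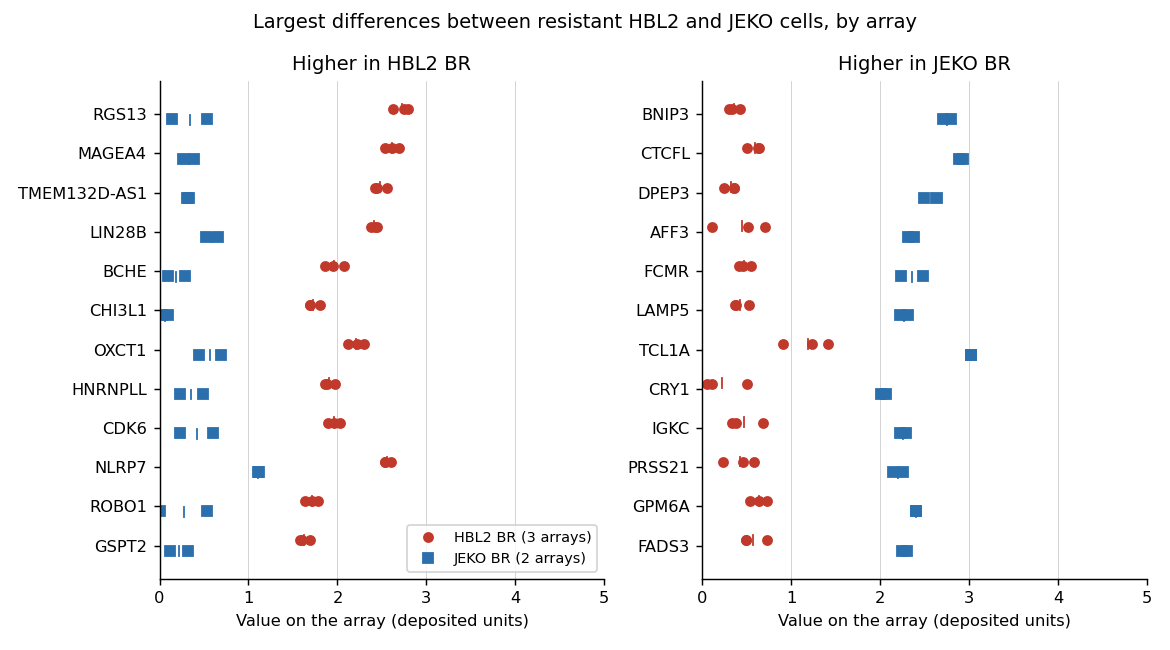
Values in deposited units of the 12 named genes with the largest non-overlapping differences in each direction. Circles are the 3 HBL2 BR arrays, squares the 2 JEKO BR arrays and short lines the group means. The 24 genes were chosen among those whose BR arrays do not overlap between the lines, so the lack of overlap is a condition of the choice and not a result.

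Some genes differed between the resistant cells and not, or the other way, between the PT cells. The 8 largest of the first kind were BCHE, OXCT1, HNRNPLL and TCL1A, given above, and CT55, a cancer-testis antigen, at -1.43, NIBAN3, a B cell membrane protein, at -1.42, SYTL1, at -1.42, and WDR86, at -1.41, with PT differences of -0.14, -0.15, 0.048 and -0.13. SMAD1, which carries signals of bone morphogenetic proteins, was higher in HBL2 among the resistant cells and lower among the PT cells. It had 1.72, 1.58 and 1.58 on the HBL2 BR arrays and 0.80 and 0.82 on the JEKO BR arrays, and 0.66, 0.61 and 0.59 on the HBL2 PT arrays and 2.0 and 1.97 on the JEKO PT arrays. The differences were 0.82 ± 0.068 (SE, adjusted p = 2.33e-07) and -1.36 ± 0.068 (SE, adjusted p = 1.42e-09). In 111 of the 140 genes called in opposite directions, JEKO was higher among the resistant cells and HBL2 among the PT cells.

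Other line differences were smaller between the resistant cells. HLA-DQA1 was 2.07, 2.0 and 2.15 on the HBL2 PT arrays and 0.82 and 0.11 on the JEKO PT arrays, and 0.72, 0.49 and 1.04 on the HBL2 BR arrays and 0.31 and 0.64 on the JEKO BR arrays. Its difference went from 1.61 ± 0.17 (SE, adjusted p = 4.44e-06) to 0.27 ± 0.17 (SE, adjusted p = 0.26), and the BR arrays of the lines overlapped. The change of -1.34 was called (adjusted p = 0.0022), but it was -0.19 with the median of its probe sets (adjusted p = 0.585) and was not called on percentile ranks or normal scores (adjusted p = 0.342 and 0.147). With the 5′ to 3′ gap of GAPDH as a covariate the BR difference of HLA-DQA1 was 0.60 and called (adjusted p = 0.02). The 7 other genes chosen by the same rule, a large difference between the PT cells that was not called between the resistant cells, were PCDH9, COCH, MYO1F, N4BP2L1, CD300A, RAP1GAP2 and KBTBD7. PCDH9, a protocadherin, differed by -1.28 in PT and 0.13 in BR, and COCH by 1.17 and -0.0080. Where probe sets that may bind several genes were left out, COCH was called in BR, at -0.28 (adjusted p = 0.027), and its change from PT was -0.12 (adjusted p = 0.654). Under that setting the change was also not called for CD300A (0.27, adjusted p = 0.572) and N4BP2L1 (-0.24, adjusted p = 0.634), nor was it on normal scores for KBTBD7 (adjusted p = 0.0711). Leaving out JEKO BR 2 or JEKO PT 1 also ended it for CD300A (-0.65 and -0.54, adjusted p = 0.0877 and 0.0724), and MYO1F was called in BR without HBL2 BR 3 (-0.40, adjusted p = 0.0361). CSTA, an inhibitor of cysteine proteases, remained called but went from 1.54 to 0.39. In contrast POU2AF1, a coactivator needed for germinal centres, went from -0.31 to -1.37, and LINC00996 from -0.43 to -1.59.

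Genes of mature B cell identity were mostly higher in resistant JEKO cells. Of 37 genes tested, 6 were higher in HBL2 BR, 20 were higher in JEKO BR and 11 were not called, with a median difference of -0.29, against 0.0060 over all genes tested. Between the PT cells 9 were higher in HBL2 PT and 3 in JEKO PT, with a median of 0.054. With TCL1A and POU2AF1, the 4 largest were CD180, a relative of Toll-like receptors on B cells, at 1.91 and 2.06 on the JEKO BR arrays and 0.54, 0.79 and 0.58 on the HBL2 BR arrays, and CD52, the target of alemtuzumab, at 1.55 and 1.80 on the JEKO BR arrays and 0.30, 0.70 and 0.68 on the HBL2 BR arrays. Both were higher in HBL2 between the PT cells, by 0.24 and 0.70, against -1.35 ± 0.083 (SE, adjusted p = 9.15e-09) and -1.11 ± 0.12 (SE, adjusted p = 4.67e-06) between the resistant cells. PAX5, the factor that fixes B cell fate, had 2.78 and 2.66 on the JEKO BR arrays and 2.10, 2.03 and 2.31 on the HBL2 BR arrays, and differed by -0.57 ± 0.094 (SE, adjusted p = 0.000251), with -0.41 in PT. The B cell surface proteins MS4A1, which is CD20, and CD79B differed by -0.29 ± 0.069 (SE, adjusted p = 0.005) and -0.25 ± 0.071 (SE, adjusted p = 0.015), against -0.012 and -0.13 in PT. MS4A1 lost the call without JEKO BR 1, at -0.20 (adjusted p = 0.116), with its probe sets summarised by their median, at -0.22 (adjusted p = 0.0759), and on percentile ranks (adjusted p = 0.147), and CD79B without HBL2 BR 1, HBL2 BR 2, JEKO BR 1 or JEKO BR 2 (-0.27 to -0.22, adjusted p = 0.0578 to 0.107). Called members did not all point one way, since 6 were higher in HBL2 BR. The B cell markers CD22, CD37 and CD79A overlapped between the BR arrays of the lines. CD37 had 1.80, 1.86 and 2.09 on the HBL2 BR arrays and 1.87 and 1.72 on the JEKO BR arrays. CD22 had 1.21, 1.24 and 1.40 against 1.35 and 1.53, and CD79A had 2.12, 2.13 and 2.26 against 2.27 and 2.25.

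The B cell receptor signalling list held fewer called genes. Of 25 genes tested, 2 were higher in HBL2 BR, 9 were higher in JEKO BR and 14 were not called, with a median difference of -0.081. In the PT comparison 9 were higher in HBL2 PT and 2 in JEKO PT, with a median of 0.19. NFATC1, a calcium-driven transcription factor, had 2.12 and 2.42 on the JEKO BR arrays and 1.03, 1.02 and 1.05 on the HBL2 BR arrays, a difference of -1.24 ± 0.093 (SE, adjusted p = 6.53e-08), but -0.014 (adjusted p = 0.961) where probe sets that may bind several genes were left out. Its PT difference was -0.57. SYK, the kinase next to the receptor, differed by -0.78, the kinase PIK3CD by -0.76 and the inhibitory Fc receptor FCGR2B by -0.74, with PT differences of -0.35, -0.25 and 0.26. BTK, the target of ibrutinib, had 1.83, 1.71 and 1.83 on the HBL2 BR arrays and 1.62 and 1.78 on the JEKO BR arrays, and was not called (adjusted p = 0.398).

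MHC class II genes, which encode the molecules that show peptides to helper T cells, were lower in resistant HBL2 cells. Of 13 genes tested, 0 were higher in HBL2 BR, 9 were higher in JEKO BR and 4 were not called, with a median difference of -0.82. Among PT arrays 2 were higher in HBL2 PT and 2 in JEKO PT, with a median of -0.18. All 9 called genes were also called in the test of the BR difference minus the PT difference. Of the 9, HLA-DOA and HLA-DMA lost that call without JEKO PT 1 (-0.47 and -0.49, adjusted p = 0.0893 and 0.112), and HLA-DOA, HLA-DMA and HLA-DMB without JEKO BR 2 (-0.40, -0.53 and -0.49, adjusted p = 0.124, 0.108 and 0.0509). On percentile ranks it was lost for HLA-DPA1, HLA-DRA, HLA-DRB4 and HLA-DOA (adjusted p = 0.0769, 0.0768, 0.0841 and 0.0536), and HLA-DOA also lost it with the median of its probe sets (adjusted p = 0.078). It was lost for HLA-DPB1 and HLA-DQB1 where probe sets that may bind several genes were left out (adjusted p = 0.0998 and 0.593), for HLA-DMA without an intensity trend (adjusted p = 0.0523), and for HLA-DMA, HLA-DMB and HLA-DOA with the GAPDH covariate (adjusted p = 0.0888, 0.0659 and 0.139). HLA-DPA1 had 2.92 and 3.12 on the JEKO BR arrays and 1.41, 1.61 and 1.90 on the HBL2 BR arrays, a difference of -1.39 ± 0.11 (SE, adjusted p = 8.32e-08). The PT arrays read 2.58, 2.54 and 2.61 for HBL2 and 2.81 and 2.93 for JEKO, so the HBL2 BR arrays were below every other array. At an unadjusted p under 0.05 the number of class II genes higher in HBL2 BR was also 0. HLA-DRB1 had 2.99 and 3.06 on the JEKO BR arrays and 1.78, 1.81 and 2.10 on the HBL2 BR arrays, and differed by -1.12 ± 0.092 (SE, adjusted p = 1.95e-07) in BR and -0.17 in PT. HLA-DRA, the alpha chain that all HLA-DR molecules share, was bright on all arrays, at 3.30 and 3.28 on the JEKO BR arrays and 2.33, 2.52 and 2.55 on the HBL2 BR arrays, and differed by -0.82 ± 0.088 (SE, adjusted p = 3.33e-06), with -0.18 in PT. HLA-DRB4 and HLA-DPB1 differed by -1.33 and -0.98, HLA-DOA, a brake on peptide loading, by -0.98, and HLA-DMB by -0.56. In PT these 4 were -0.50, -0.21, -0.46 and -0.018. Probe sets of the HLA genes may bind transcripts of related HLA genes, so members of this group are not fully separate measurements.

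**Figure D3:**
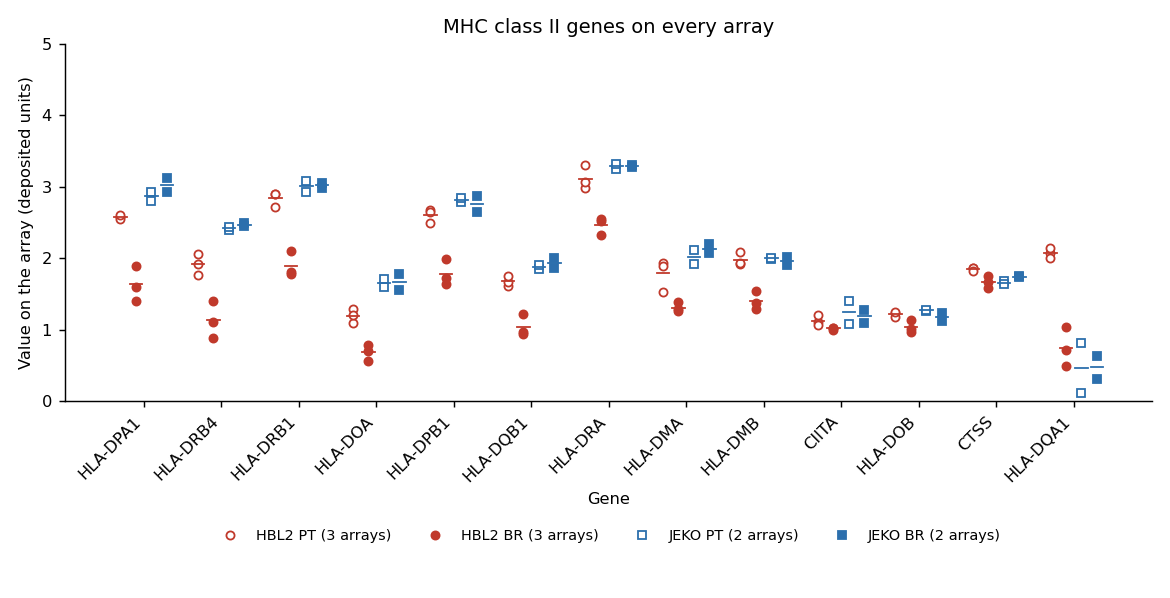
Values in deposited units of the 13 MHC class II genes tested on all 10 arrays, with circles for HBL2, squares for JEKO, open symbols for PT, filled symbols for BR and short lines for group means; genes run from the most negative to the most positive BR difference. For the 9 called genes the filled circles lie below the filled squares.

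The promoters of the class II genes are shown because the genes differed together, with the letters of a Y box, an element known from class II promoters, in capitals. The letters searched were CTGATTGG on both strands, in windows of 300 bases that end shortly after the start of the gene, from the RefSeq annotation of GRCh38.p14. Of 13 tested genes 9 matched a promoter entry, and 3 of the 9 held these letters, against 4.16% of 27305 promoters of that length. Each is written 5′ to 3′ along the gene.
HLA-DRB1 (chr6:32589799-32590098, minus strand): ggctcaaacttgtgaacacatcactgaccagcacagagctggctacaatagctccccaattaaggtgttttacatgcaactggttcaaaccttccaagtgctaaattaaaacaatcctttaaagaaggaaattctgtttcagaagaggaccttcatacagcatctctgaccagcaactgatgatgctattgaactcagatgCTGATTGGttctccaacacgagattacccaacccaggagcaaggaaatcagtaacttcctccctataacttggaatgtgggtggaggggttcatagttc
HLA-DQB1 (chr6:32666608-32666907, minus strand): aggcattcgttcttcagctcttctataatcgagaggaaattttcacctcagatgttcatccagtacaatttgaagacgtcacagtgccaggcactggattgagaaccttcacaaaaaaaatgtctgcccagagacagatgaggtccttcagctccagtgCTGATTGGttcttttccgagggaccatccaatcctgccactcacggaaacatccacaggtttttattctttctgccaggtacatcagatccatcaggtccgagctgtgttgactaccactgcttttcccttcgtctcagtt
HLA-DMA (chr6:32953048-32953347, minus strand): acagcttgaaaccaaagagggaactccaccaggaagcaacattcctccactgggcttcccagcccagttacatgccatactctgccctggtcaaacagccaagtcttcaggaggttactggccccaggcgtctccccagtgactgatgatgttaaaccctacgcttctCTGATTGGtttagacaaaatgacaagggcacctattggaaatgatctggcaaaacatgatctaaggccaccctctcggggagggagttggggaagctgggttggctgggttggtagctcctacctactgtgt

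HLA-DQB1 and HLA-DMA were picked after their values were seen, as promoters with a match. HLA-DQB1 had 1.87 and 2.01 on the JEKO BR arrays and 0.97, 0.94 and 1.23 on the HBL2 BR arrays and differed by -0.90 ± 0.086 (SE, adjusted p = 1.13e-06), while its value with probe sets that may bind several genes left out was 0.46 in the opposite direction (adjusted p = 0.0112). HLA-DMA, which loads peptides onto class II molecules, had 2.07 and 2.20 on the JEKO BR arrays and 1.27, 1.29 and 1.39 on the HBL2 BR arrays and differed by -0.82 ± 0.10 (SE, adjusted p = 1.73e-05). The PT differences of HLA-DQB1 and HLA-DMA were -0.20 and -0.23. A match in letters is a description of the window and no measure of binding.

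MHC class I and its peptide loading genes went in both directions. Of 17 genes tested, 3 were higher in HBL2 BR, 8 were higher in JEKO BR and 6 were not called, with a median difference of -0.11. Of the same genes, 11 were higher in HBL2 PT and 0 in JEKO PT, with a median of 0.28 between the PT cells. NLRC5, the activator of class I genes, had 1.96 and 2.07 on the JEKO BR arrays and 1.04, 1.12 and 1.14 on the HBL2 BR arrays, a difference of -0.92 ± 0.095 (SE, adjusted p = 2.36e-06), with -0.13 in PT. HLA-B, HLA-E and HLA-C differed by -0.55, -0.48 and -0.46 between the resistant cells and by 0.12, 0.19 and 0.17 between the PT cells. PSMB8, the immunoproteasome counterpart of PSMB5, was -0.21 in BR (adjusted p = 0.025) and 0.26 in PT. PSMB8 lost the call without JEKO BR 2, at -0.13 (adjusted p = 0.32), and without any 1 HBL2 BR array (-0.22 to -0.20, adjusted p = 0.0516 to 0.0656). With probe sets that may bind several genes left out, 3 genes of the list were called higher in JEKO BR.

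Plasma cell genes split evenly. Of 27 genes tested, 8 were higher in HBL2 BR, 8 were higher in JEKO BR and 11 were not called, with a median difference of 0.018. In the PT cells 10 were higher in HBL2 PT and 3 in JEKO PT, with a median of 0.10. CD38, a surface enzyme high on plasma cells, had 1.65, 1.73 and 1.71 on the HBL2 BR arrays and 0.58 and 0.80 on the JEKO BR arrays, and differed by 1.01 ± 0.078 (SE, adjusted p = 9.84e-08), wider than the 0.33 in PT. PRDM1, the repressor that drives plasma cell fate, had 1.67, 1.70 and 1.60 on the HBL2 BR arrays and 0.95 and 1.12 on the JEKO BR arrays, and differed by 0.62 ± 0.073 (SE, adjusted p = 9.92e-06). XBP1, the factor behind the secretory apparatus, had 1.81, 1.92 and 1.84 on the HBL2 BR arrays and 1.57 and 1.56 on the JEKO BR arrays and differed by 0.29 ± 0.071 (SE, adjusted p = 0.00573). Both already differed in PT, by 0.37 and 0.33. SEC11C, a subunit of the signal peptidase, differed by 0.75, with 0.46 in PT. In the other direction CD27, a memory B cell and plasma cell receptor, differed by -0.95, LAX1, an adaptor that dampens antigen receptor signals, by -0.99, and TNFRSF17, which is BCMA, by -0.24 ± 0.072 (SE, adjusted p = 0.021), against -0.99, -0.33 and -0.18 in PT. IRF4 was bright and its arrays overlapped, with 2.25, 2.25 and 2.09 on the HBL2 BR arrays and 2.18 and 2.21 on the JEKO BR arrays (adjusted p = 0.974) and -0.17 in PT, and SDC1, which is CD138, differed by 0.24 ± 0.11 (SE, adjusted p = 0.118) in BR and 0.34 in PT. XBP1 missed the threshold without JEKO BR 2, at 0.29 (adjusted p = 0.0504), and TNFRSF17 without HBL2 BR 2 or JEKO BR 1 (-0.19 and -0.18, adjusted p = 0.0973 and 0.189) and on percentile ranks (adjusted p = 0.0542). Where all probe sets of a gene were summarised by their median, PRDM1 was 0.18 (adjusted p = 0.0916) and XBP1 0.088 (adjusted p = 0.435).

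Genes of the proteasome core, the part that bortezomib binds, were called in one direction. Of 13 genes tested, 8 were higher in HBL2 BR, 0 were higher in JEKO BR and 5 were not called, with a median difference of 0.22. At an unadjusted p under 0.05 limma also gave 0 higher in JEKO BR. Between the PT cells 4 were higher in HBL2 PT and 0 in JEKO PT, with a median of 0.058. PSMB5 had 2.45, 2.44 and 2.49 on the HBL2 BR arrays and 2.25 and 2.19 on the JEKO BR arrays, a difference of 0.24 ± 0.059 (SE, adjusted p = 0.00607). Its PT difference of 0.15 was not called (adjusted p = 0.0722), and the test of the difference between them gave 0.085 ± 0.084 (SE, adjusted p = 0.624). PSMA1, PSMA3, PSMA4 and PSMB4 differed by 0.35, 0.30, 0.29 and 0.28, against 0.092, 0.39, -0.13 and 0.19 in PT. Each of these BR differences was below the median called difference of 0.36, and the count was 4 without JEKO BR 2, where PSMB5 was 0.21 (adjusted p = 0.0865), PSMA3 0.24 (adjusted p = 0.161) and PSMA4 0.21 (adjusted p = 0.159). PSMA3 also missed the threshold without HBL2 BR 1 or HBL2 BR 2 (0.27 and 0.26, adjusted p = 0.0509 and 0.054), and with the median of all its probe sets (0.17, adjusted p = 0.137). On percentile ranks PSMA1, PSMA3, PSMA4 and PSMB4 were not called (adjusted p = 0.084, 0.166, 0.23 and 0.268). The 19S regulator, which unfolds substrates for the core, ran the same way with 1 exception. Of 20 genes tested, 8 were higher in HBL2 BR, 1 was higher in JEKO BR and 11 were not called, with a median difference of 0.17. PSMC4 had 2.12, 2.07 and 1.92 on the HBL2 BR arrays and 1.62 and 1.51 on the JEKO BR arrays, PSMC3 differed by 0.45 and PSMD6 by 0.44, against 0.34, 0.13 and -0.051 in PT. In PT cells 2 were higher in HBL2 PT and 3 in JEKO PT, with a median of 0.053. The exception was PSMD5, an assembly chaperone, at -0.87 ± 0.089 (SE, adjusted p = 2.34e-06) in BR and -0.98 in PT.

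Targets of ATF4, the transcription factor of amino acid and proteotoxic stress, were mostly higher in resistant HBL2 cells. Of 31 genes tested, 16 were higher in HBL2 BR, 4 were higher in JEKO BR and 11 were not called, with a median difference of 0.27. In the PT comparison 12 were higher in HBL2 PT and 1 in JEKO PT, with a median of 0.15. ALDH1L2, a mitochondrial folate enzyme, had 1.24, 1.43 and 1.33 on the HBL2 BR arrays and 0.046 and 0.36 on the JEKO BR arrays, and differed by 1.13 ± 0.12 (SE, adjusted p = 3.26e-06), with 0.80 in PT. The glycyl and tryptophanyl tRNA synthetases GARS1 and WARS1 differed by 0.66 ± 0.12 (SE, adjusted p = 0.000469) and 0.54 ± 0.092 (SE, adjusted p = 0.00036), against 0.18 and 0.094 in PT. On percentile ranks GARS1 was not called (adjusted p = 0.113). STC2, a secreted glycoprotein, was higher in JEKO BR, at -0.77 ± 0.14 (SE, adjusted p = 0.000646), with -0.19 in PT. With probe sets that may bind several genes left out, 7 members were called higher in HBL2 BR.

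The letters TGATGNAA, the core of the composite site that ATF4 and CEBP proteins share, were searched in the same windows on both strands. They occurred in 6 of 26 matched promoters of the list, those of ATF3, ASNS, SLC3A2, SLC7A1, CHAC1 and AARS1, against 3.67% of 27305. Of these genes, ATF3, SLC7A1 and AARS1 were not called between the resistant cells, at 0.21, 0.16 and 0.14. ATF3 and SLC7A1 were called under some alternatives. SLC3A2 was called, at 0.30, but not without JEKO BR 1, where it was 0.27. The promoters of asparagine synthetase, ASNS, and of CHAC1, which breaks down glutathione, are shown as members of the list called higher in HBL2 BR, with the match in capitals. In CHAC1 the match is on the opposite strand, so the capitals show its reverse complement.
ASNS (chr7:97872359-97872658, minus strand): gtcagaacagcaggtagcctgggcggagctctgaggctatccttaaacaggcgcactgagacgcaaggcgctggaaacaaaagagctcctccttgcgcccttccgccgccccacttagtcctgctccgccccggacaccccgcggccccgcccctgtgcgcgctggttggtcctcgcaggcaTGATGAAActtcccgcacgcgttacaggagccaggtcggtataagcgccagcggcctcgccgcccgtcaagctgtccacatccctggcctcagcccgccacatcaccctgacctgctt
CHAC1 (chr15:40953221-40953520, plus strand): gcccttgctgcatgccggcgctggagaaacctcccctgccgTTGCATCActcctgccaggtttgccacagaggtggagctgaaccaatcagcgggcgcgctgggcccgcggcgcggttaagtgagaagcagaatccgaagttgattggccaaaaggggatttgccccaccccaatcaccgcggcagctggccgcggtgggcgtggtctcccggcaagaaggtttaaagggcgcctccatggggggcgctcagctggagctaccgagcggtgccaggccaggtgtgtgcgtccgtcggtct

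ASNS had 2.53, 2.61 and 2.41 on the HBL2 BR arrays and 1.98 and 2.08 on the JEKO BR arrays, and differed by 0.48 ± 0.076 (SE, adjusted p = 0.000164). CHAC1 had 1.41, 1.46 and 1.38 on the HBL2 BR arrays and 0.92 and 1.12 on the JEKO BR arrays, and differed by 0.39 ± 0.088 (SE, adjusted p = 0.00303). ASNS and CHAC1 were picked after their values were seen, as promoters with a match. CHAC1 missed the threshold without JEKO BR 1, at 0.29 (adjusted p = 0.0704). The PT differences of the genes were 0.33 and 0.22.

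Other stress lists held calls on both sides. Of the unfolded protein response, 9 of 30 tested were higher in HBL2 BR, 6 were higher in JEKO BR and 15 were not called, with a median difference of 0.094, and in PT 9 were higher in HBL2 and 0 in JEKO, with a median of 0.079. DNAJC3, a co-chaperone of the endoplasmic reticulum, differed by 0.50, the translocon channel SEC61A1 by 0.42 and ERO1B, which forms disulphide bonds, by 0.40, while HERPUD1 differed by -0.42, and by -0.18 (adjusted p = 0.367) where probe sets that may bind several genes were left out. Their PT differences were 0.30, 0.35, 0.57 and -0.13. Among heat shock genes, 4 of 16 tested were higher in HBL2 BR, 1 was higher in JEKO BR and 11 were not called, with a median difference of 0.16, and in PT 3 were higher in HBL2 and 3 in JEKO, with a median of 0.13. HSPA4L, a relative of the HSP110 chaperones, had 1.57, 1.41 and 1.40 on the HBL2 BR arrays and 0.68 and 0.44 on the JEKO BR arrays, with 0.91 in BR and 0.79 in PT. Among NRF2 and antioxidant genes, 8 of 24 tested were higher in HBL2 BR, 2 were higher in JEKO BR and 14 were not called, with a median difference of 0.032, and in PT 8 were higher in HBL2 and 1 in JEKO, with a median of 0.10. NQO1, a quinone reductase, had 1.74, 1.69 and 1.63 on the HBL2 BR arrays and 0.96 and 0.96 on the JEKO BR arrays, and GSTP1, which conjugates glutathione, had 2.99, 2.94 and 3.0 on the HBL2 BR arrays and 2.47 and 2.45 on the JEKO BR arrays. Their differences were 0.73 ± 0.078 (SE, adjusted p = 3.46e-06) and 0.52 ± 0.069 (SE, adjusted p = 3.17e-05), and in PT they were 0.47 and -0.023.

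Genes that govern the cell cycle and survival varied by member. Of D cyclins and lymphoma drivers, 3 of 21 tested were higher in HBL2 BR, 9 were higher in JEKO BR and 9 were not called, with a median difference of -0.11, and in PT 4 were higher in HBL2 and 8 in JEKO, with a median of -0.13. CCND2, cyclin D2, had 2.07, 2.12 and 2.03 on the HBL2 BR arrays and 1.34 and 1.52 on the JEKO BR arrays, with 0.64 ± 0.095 (SE, adjusted p = 9.44e-05) in BR and 1.40 in PT, though with the median over its probe sets the PT difference was the smaller by 0.25. On percentile ranks CCND2 was not called in BR (adjusted p = 0.283). CDKN2A, the inhibitor of CDK4 and CDK6, was just above the array median in HBL2 BR, with 2.10 and 2.09 on the JEKO BR arrays and 0.87, 0.74 and 0.96 on the HBL2 BR arrays and a difference of -1.24 ± 0.090 (SE, adjusted p = 5.36e-08). RB1, the protein these kinases inactivate, differed by -0.59, and the PT differences of CDKN2A and RB1 were -1.39 and -0.40. For CCND1 itself the probe sets disagreed. The brighter one gave -0.44 ± 0.071 (SE, adjusted p = 0.000219), and the other gave 2.64 in the opposite direction (adjusted p = 1.2e-10). Mantle cell lymphomas are known to make cyclin D1 transcripts of different length, and which part of the transcript each probe set covers is not given in the sources used here. In PT the brighter probe set differed by -0.67. SOX11, the transcription factor that marks the disease, differed by -0.36 ± 0.082 (SE, adjusted p = 0.0035) and ATM by -0.32 ± 0.091 (SE, adjusted p = 0.0143), against -0.55 and -0.13 in PT. ATM lost the call without HBL2 BR 2 or JEKO BR 1 (-0.28 and -0.25, adjusted p = 0.0558 and 0.159), and with the median of all its probe sets (-0.23, adjusted p = 0.175).

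Cell cycle genes were more often higher in HBL2 BR. Of 36 genes tested, 14 were higher in HBL2 BR, 4 were higher in JEKO BR and 18 were not called, with a median difference of 0.091. Between the PT cells the counts leaned the other way, with 4 higher in HBL2 PT and 8 in JEKO PT and a median of -0.036. Still, 8 genes were called in the same direction in both comparisons and 0 in opposite directions. Of the genes called in BR, 4 were also called in the test of the BR difference minus the PT difference. TTK, a spindle checkpoint kinase, differed by 0.57, and CCNE2, cyclin E2, by 0.54. MCM6, a subunit of the replicative helicase, differed by -0.49 and UBE2C, which acts with the anaphase-promoting complex, by -0.40. In the order given, the PT differences of these 4 were 0.49, 0.64, -0.29 and -0.72. Of p53 targets, 3 of 21 tested were higher in HBL2 BR, 8 were higher in JEKO BR and 10 were not called, with a median difference of 0.0024, and in PT 3 were higher in HBL2 and 3 in JEKO, with a median of 0.035. ZMAT3, GADD45A, TP53INP1 and TP53I3 differed by -0.76, -0.68, -0.67 and -0.51, against -0.29, -0.43, -0.27 and -0.60 in PT.

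Of the BCL2 family, 3 of 14 tested were higher in HBL2 BR, 3 were higher in JEKO BR and 8 were not called, with a median difference of 0.0054, and in PT 6 were higher in HBL2 and 0 in JEKO, with a median of 0.14. BCL2, the target of venetoclax, had 2.55, 2.55 and 2.55 on the HBL2 BR arrays and 2.11 and 2.19 on the JEKO BR arrays, a difference of 0.40 ± 0.067 (SE, adjusted p = 0.000295) beside 0.88 between the PT cells. The narrowing of BCL2 was called, but not with the median of its probe sets (-0.26, adjusted p = 0.119). MCL1, a short-lived survival protein that the proteasome degrades, had 2.78 and 2.75 on the JEKO BR arrays and 2.30, 2.40 and 2.31 on the HBL2 BR arrays and differed by -0.43 ± 0.066 (SE, adjusted p = 0.000143), with -0.19 in PT. Other probe sets did not carry these calls: with the median over probe sets BCL2 was 0.15 (adjusted p = 0.102) and MCL1 -0.13 (adjusted p = 0.181), and MCL1 was -0.026 (adjusted p = 0.848) where probe sets that may bind several genes were left out. PMAIP1, the protein NOXA, differed by 0.45 ± 0.10 (SE, adjusted p = 0.00369), and by 0.27 (adjusted p = 0.126) without JEKO BR 2. HRK differed by -0.45, and the PT differences of PMAIP1 and HRK were 0.36 and -0.040. BCL2L1 and BCL2L11, the proteins BCL-XL and BIM, were not called, at -0.041 and 0.19 (adjusted p = 0.777 and 0.128), though BCL2L11 was called where the median of all its probe sets was used, at 0.68 (adjusted p = 3.85e-06). In PT they were -0.045 and 0.50. Of the TNF family and death receptors, 4 of 25 tested were higher in HBL2 BR, 6 were higher in JEKO BR and 15 were not called, with a median difference of 0.024, and in PT 8 were higher in HBL2 and 2 in JEKO, with a median of 0.12. TNFSF8, the CD30 ligand, had 1.80 and 1.78 on the JEKO BR arrays and 0.59, 0.42 and 0.29 on the HBL2 BR arrays, and differed by -1.36 ± 0.11 (SE, adjusted p = 1.69e-07) in BR and -0.022 in PT. FADD, the adaptor of death receptors, and TNFRSF18 differed by 0.69 and 0.66, against 0.39 and 0.035 in PT.

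Cytokine receptor and JAK-STAT genes were more often higher in JEKO BR. Of 33 genes tested, 2 were higher in HBL2 BR, 13 were higher in JEKO BR and 18 were not called, with a median difference of -0.12. Among PT arrays 6 were higher in HBL2 PT and 6 in JEKO PT, with a median of 0.031. The transcription factor STAT6 had 2.69 and 2.72 on the JEKO BR arrays and 1.89, 1.91 and 2.12 on the HBL2 BR arrays, a difference of -0.73 ± 0.080 (SE, adjusted p = 4.84e-06), with -0.35 in PT. The kinase PIM1 differed by -0.71, CSF2RB, the shared receptor chain for GM-CSF and relatives, by -0.64, and the feedback inhibitor SOCS2 by -0.55, with PT differences of -1.03, -0.11 and 0.038. Without JEKO BR 2 the number higher in JEKO BR was 8. Of NF-kB targets, 6 of 25 tested were higher in HBL2 BR, 6 were higher in JEKO BR and 13 were not called, with a median difference of 0.00060, and in PT 5 were higher in HBL2 and 4 in JEKO, with a median of 0.042. TNFAIP2 and NFKBIZ differed by 0.80 and 0.50, and the chemokine CCL4 and the inhibitor NFKBIE by -0.83 and -0.44, with PT differences of 0.51, -0.13, 0.44 and -0.14. On percentile ranks NFKBIZ was not called (adjusted p = 0.367).

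Receptors that guide lymphocytes to lymphoid tissue were among the larger JEKO differences. Of adhesion and homing genes, 2 of 25 tested were higher in HBL2 BR, 9 were higher in JEKO BR and 14 were not called, with a median difference of -0.12, and in PT 10 were higher in HBL2 and 3 in JEKO, with a median of 0.13. CCR7, which leads cells into lymph nodes, had 2.22 and 2.19 on the JEKO BR arrays and 0.90, 1.02 and 1.41 on the HBL2 BR arrays, and differed by -1.10 ± 0.12 (SE, adjusted p = 3.46e-06). S1PR4, GPR183 and CD9 differed by -0.99, -0.93 and -0.86, and the PT differences of the 4 genes were -0.24, -0.14, 0.25 and 0.038. CXCR4 differed by -0.73 ± 0.076 (SE, adjusted p = 2.66e-06) in BR and -0.37 in PT. CD44, a hyaluronan receptor, had 0.32, 0.53 and 0.90 on the HBL2 BR arrays and 0.67 and 0.67 on the JEKO BR arrays, at -0.090 ± 0.13 (SE, adjusted p = 0.658), with 0.066 in PT. The caveolin, actin and cell shape list was mixed, since 8 of 25 tested were higher in HBL2 BR, 6 were higher in JEKO BR and 11 were not called, with a median difference of 0.13, and in PT 10 were higher in HBL2 and 3 in JEKO, with a median of 0.12. CTTN, cortactin, had 1.85, 1.85 and 1.85 on the HBL2 BR arrays and 0.71 and 0.70 on the JEKO BR arrays, and ANXA1, annexin A1, had 1.55, 1.44 and 1.23 on the HBL2 BR arrays and 0.52 and 0.12 on the JEKO BR arrays. Their PT differences were 0.025 and 0.034, neither of them called, and the BR differences were 1.14 ± 0.084 (SE, adjusted p = 5.61e-08) and 1.08 ± 0.12 (SE, adjusted p = 6.69e-06). The tubulins TUBB2A and TUBB2B differed by -1.07 and -1.47, against -0.86 and -0.95 in PT.

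Growth signalling genes differed at a few points. Of TCL1, AKT and growth signalling, 5 of 20 tested were higher in HBL2 BR, 4 were higher in JEKO BR and 11 were not called, with a median difference of 0.068, and in PT 5 were higher in HBL2 and 1 in JEKO, with a median of 0.082. TCL1B, a neighbour of TCL1A, had 2.40 and 2.34 on the JEKO BR arrays and 0.67, 0.77 and 0.96 on the HBL2 BR arrays and differed by -1.57 ± 0.088 (SE, adjusted p = 3.58e-09), with -0.55 in PT. AKT1, the kinase that TCL1 proteins activate, had 2.33, 2.27 and 2.48 on the HBL2 BR arrays and 1.56 and 1.45 on the JEKO BR arrays, and differed by 0.86 ± 0.095 (SE, adjusted p = 5e-06) in BR and 0.71 in PT. Of SMAD and ID genes, 6 of 20 tested were higher in HBL2 BR, 5 were higher in JEKO BR and 9 were not called, with a median difference of -0.023, and in PT 3 were higher in HBL2 and 5 in JEKO, with a median of -0.00080. The receptor BMPR2 and the target gene ID1 differed by 0.70 and 0.63, in the direction of SMAD1, and SMAD4 by -0.67, which was not called on percentile ranks (adjusted p = 0.0562). In PT these 3 were 0.63, 0.22 and -0.57. Of glycolysis and hypoxia genes, 6 of 31 tested were higher in HBL2 BR, 11 were higher in JEKO BR and 14 were not called, with a median difference of -0.091, and in PT 7 were higher in HBL2 and 1 in JEKO, with a median of 0.12. Beside BNIP3, the glucose transporter SLC2A3 differed by -0.99 ± 0.10 (SE, adjusted p = 2.98e-06) and hexokinase HK1 by -0.80 ± 0.079 (SE, adjusted p = 1.41e-06). The kinase PDK1 differed by -0.64 ± 0.084 (SE, adjusted p = 3.17e-05). In PT SLC2A3, HK1 and PDK1 were at 0.25, -0.16 and 0.087.

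For sterol and interferon genes the counts are given beside those of the PT cells. Of cholesterol synthesis genes, 3 of 20 tested were higher in HBL2 BR, 4 were higher in JEKO BR and 13 were not called, with a median difference of 0.040, whereas between the PT cells 14 were higher in HBL2 PT and 0 in JEKO PT, with a median of 0.31. INSIG1, the sensor that holds sterol regulation back, was -0.50 in BR and 0.38 in PT, DHCR7 was 0.48 and 0.83, and MSMO1 was -0.48 and 0.16. Of interferon-stimulated genes, 8 of 29 tested were higher in HBL2 BR, 4 were higher in JEKO BR and 17 were not called, with a median difference of -0.015, whereas between the PT cells 17 were higher in HBL2 PT and 0 in JEKO PT, with a median of 0.32. IFIT5 differed by 0.72 in BR and 0.72 in PT, SAMD9L by 0.64 and 0.88, and IFI44 by 0.68 and -0.088. IFI44 missed the threshold in BR where probe sets that may bind several genes were left out, at 0.49 (adjusted p = 0.0507).

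Histone genes were called in one direction between both pairs of cells. For histones and T and NK cell markers, limma gave 0 genes higher in HBL2 BR at an unadjusted p under 0.05 as well. Of the histones, 0 of 16 tested were higher in HBL2 BR, 7 were higher in JEKO BR and 9 were not called, with a median difference of -0.24, and between the PT cells 0 were higher in HBL2 PT and 11 in JEKO PT, with a median of -0.60. H2AC6 and H2BC5 differed by -1.23 and -0.63 in BR and by -1.27 and -0.81 in PT, and probe sets of histone genes may bind relatives. Cancer-testis antigens were divided by line, with 5 of 18 higher in HBL2 BR and 5 higher in JEKO BR, and in PT 7 were higher in HBL2 and 5 in JEKO, with a median of 0.11. PRAME, an antigen of many tumours, differed by -1.63 in BR and -1.41 in PT, beside CTCFL and CT55 on the JEKO side and MAGEA4 on the HBL2 side. Of homeobox and developmental regulators, 9 of 29 tested were higher in HBL2 BR, 7 were higher in JEKO BR and 13 were not called, with a median difference of 0.045, and in PT 6 were higher in HBL2 and 9 in JEKO, with a median of 0.012. LMO3 had 1.81, 1.73 and 1.90 on the HBL2 BR arrays and 0.48 and 0.43 on the JEKO BR arrays, and differed by 1.36 ± 0.086 (SE, adjusted p = 1.24e-08) in BR and 0.12 in PT. TOX, a nuclear protein of T cell development, differed by 1.36, SOX4, a factor of early B cells, by -1.12 and LHX2 by 0.97, which was not called on percentile ranks (adjusted p = 0.0729). In PT these 3 were 1.39, -1.15 and 0.32.

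Genes used as markers of other blood cells differed as well, although both samples are cell lines. Of T and NK cell markers, 0 of 9 tested were higher in HBL2 BR, 5 were higher in JEKO BR and 4 were not called, with a median difference of -0.41, and in PT 0 were higher in HBL2 and 3 in JEKO, with a median of -0.15. LCK, the kinase of the T cell receptor, had 1.99 and 2.05 on the JEKO BR arrays and 0.68, 0.53 and 0.81 on the HBL2 BR arrays, and CD247, the zeta chain of that receptor, had 1.90 and 2.02 on the JEKO BR arrays and 0.55, 0.62 and 0.67 on the HBL2 BR arrays. ZAP70 and CD7 differed by -0.98 and -0.73, with CD7 not called on percentile ranks (adjusted p = 0.0527). In PT they differed by -0.51 and -0.12, LCK by -0.43 and CD247 by -1.21. Of the 17 measured genes of this list, 11 were below the array median on all HBL2 BR arrays and 8 on all JEKO BR arrays. At or above it on every array were 2 in HBL2 BR and 7 in JEKO BR. The T cell genes CD2, CD3D and CD8A were below it on all 5 BR arrays, while CD3E, CD3G, CD4 and CD8B were not. CD3E had 0.73, 0.85 and 0.87 on the HBL2 BR arrays and 0.85 and 0.40 on the JEKO BR arrays. CD3G was above the median on HBL2 BR 2, at 0.75. On the JEKO BR arrays CD4 had 0.92 and 1.05 and CD8B had 0.87 and 0.85. Summed over the 17 measured genes of 18 listed, the values were 9.548 to 10.04 on the HBL2 BR arrays, 15.24 to 15.85 on the JEKO BR arrays and 12.32 to 12.75 on the JEKO PT arrays. The summed values of the 15 measured myeloid markers were 7.764 to 8.87 in HBL2 BR and 10.05 to 10.69 in JEKO BR. Between the PT cells the order was the other way, with 11.08 to 12.9 in HBL2 PT and 9.428 to 10.33 in JEKO PT. TYROBP was -0.73 in BR and 0.82 in PT. In bulk RNA, more cells of a type and more RNA per cell cannot be told apart, and the part of other cells in any result was not tested. Immunoglobulin genes had 1 of 11 higher in HBL2 BR and 5 higher in JEKO BR, and in PT 2 were higher in HBL2 and 2 in JEKO, with a median of 0.0080. IGHA1 was -1.06 in BR and -1.07 in PT, and their probe sets may bind relatives.

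The remaining lists are given by their counts, beside the 28.1% of all genes called. ABC transporters had 3 of 18 higher in HBL2 BR and 2 higher in JEKO BR, and in PT 4 were higher in HBL2 and 2 in JEKO, with a median of 0.0060. Autophagy and lysosome genes had 4 of 27 higher in HBL2 BR and 2 higher in JEKO BR, and in PT 4 were higher in HBL2 and 1 in JEKO, with a median of 0.080, with MAP1LC3B, a coat protein of autophagosomes, at -0.48 in BR and -0.39 in PT. Myeloid markers had 0 of 10 higher in HBL2 BR and 2 higher in JEKO BR, and in PT 2 were higher in HBL2 and 0 in JEKO, with a median of 0.13. Stromal and epithelial markers had 0 of 9 higher in HBL2 BR and 1 higher in JEKO BR, and in PT 0 were higher in HBL2 and 0 in JEKO, with a median of -0.0052. Erythroid markers had 0 of 6 higher in HBL2 BR and 1 higher in JEKO BR, and in PT 0 were higher in HBL2 and 0 in JEKO, with a median of -0.10.

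**Figure D4:**
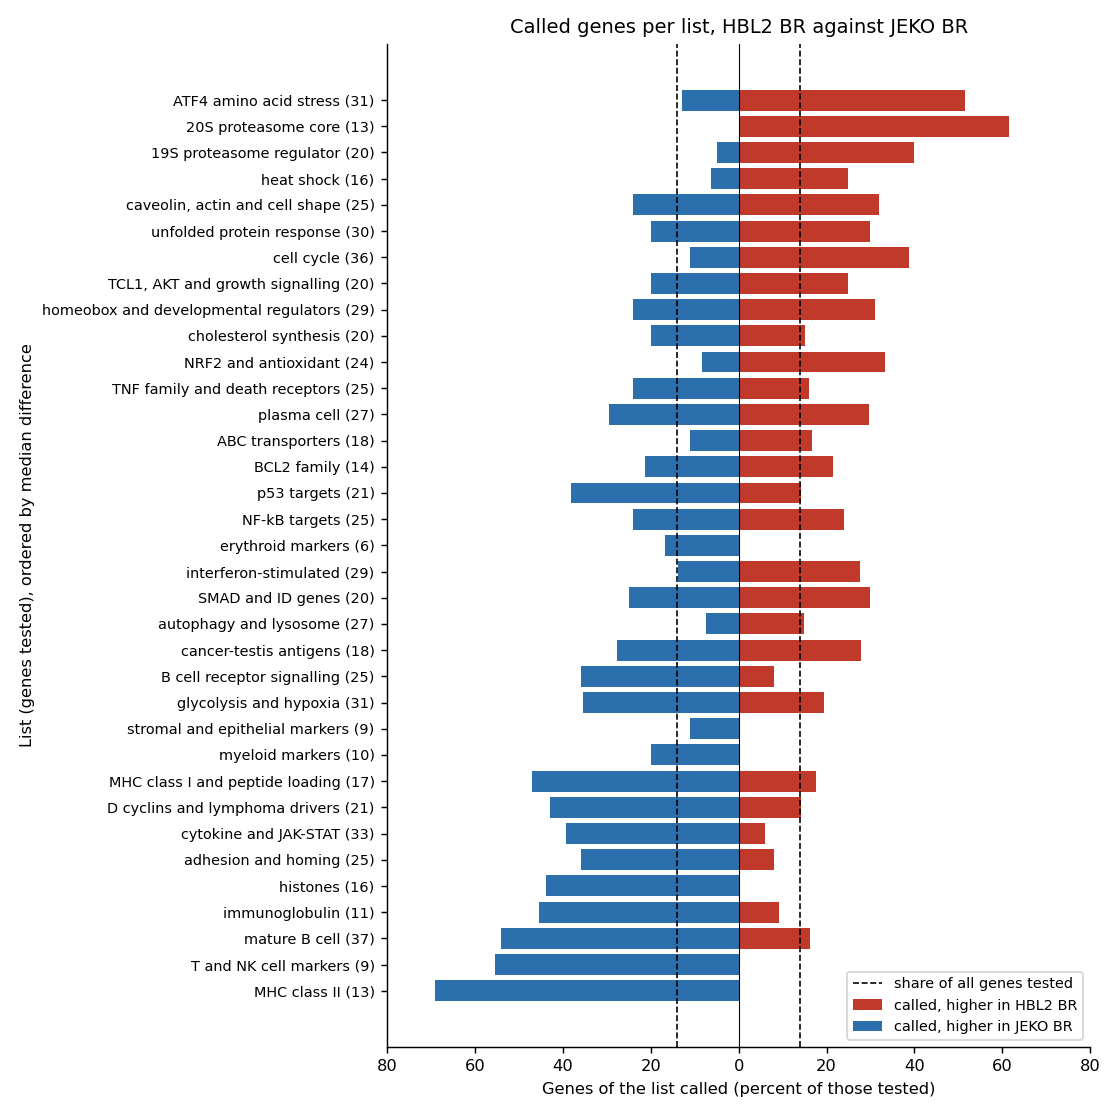
For each list, the percent of its tested genes called higher in HBL2 BR (right) and higher in JEKO BR (left), with dashed lines at the 14.0% and 14.1% of all genes tested and lists ordered by their median BR difference. ATF4 amino acid stress stands at the top and MHC class II, with 9 of 13 genes higher in JEKO BR, at the bottom.

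Called genes also lay next to each other along the chromosomes. In the order of the RefSeq annotation, 14513 tested genes had a place, and 95 runs of 4 or more neighbouring tested genes called in the same direction held 469 genes, 47 runs higher in HBL2 BR and 48 higher in JEKO BR. The longest runs had 11 genes, RIPK2 to TRIQK and OSR2 to ZNF706, both higher in HBL2 BR. Both lie in 1 stretch, from RIPK2 to EBAG9, bounded after the runs were seen. Of its 74 tested genes 49 were higher in HBL2 BR and 4 in JEKO BR, with a median difference of 0.36. Between the PT cells 52 were higher in HBL2 and 2 in JEKO, with a median of 0.38. This pattern was thus present between the PT cells too.

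The stretch from BIN1 to SPOPL, which holds CXCR4 and MCM6, was of another kind. Of 37 tested genes, 30 were higher in JEKO BR, 0 were higher in HBL2 BR (1 at an unadjusted p under 0.05) and 7 were not called, with a median difference of -0.35. Between the PT cells 3 were called, all higher in JEKO PT, and the median was -0.087. The test of the BR difference minus the PT difference called 13 of the 37, against 8.71% of all genes and 21.5% of genes called in BR. The stretch was bounded by its BR calls, so a share above that of all genes was favoured from the outset. A further stretch, NEMP1 to TSFM, holds CDK4 and had 22 of 30 genes higher in JEKO BR and 1 higher in HBL2 BR, with medians of -0.36 in BR and -0.20 in PT. The stretch around AKT1, from TRMT61A to MTA1, had 21 of 27 genes higher in HBL2 BR and 1 higher in JEKO BR, with medians of 0.47 and 0.58. The stretch around PIM1, from MTCH1 to CCDC167, is itself a run, so its 7 genes were all called higher in JEKO BR by definition. Of the 7, 6 were called so between the PT cells. These stretches were also bounded after their values were seen, and the copy number of the lines was not measured on these arrays.

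**Figure D5:**
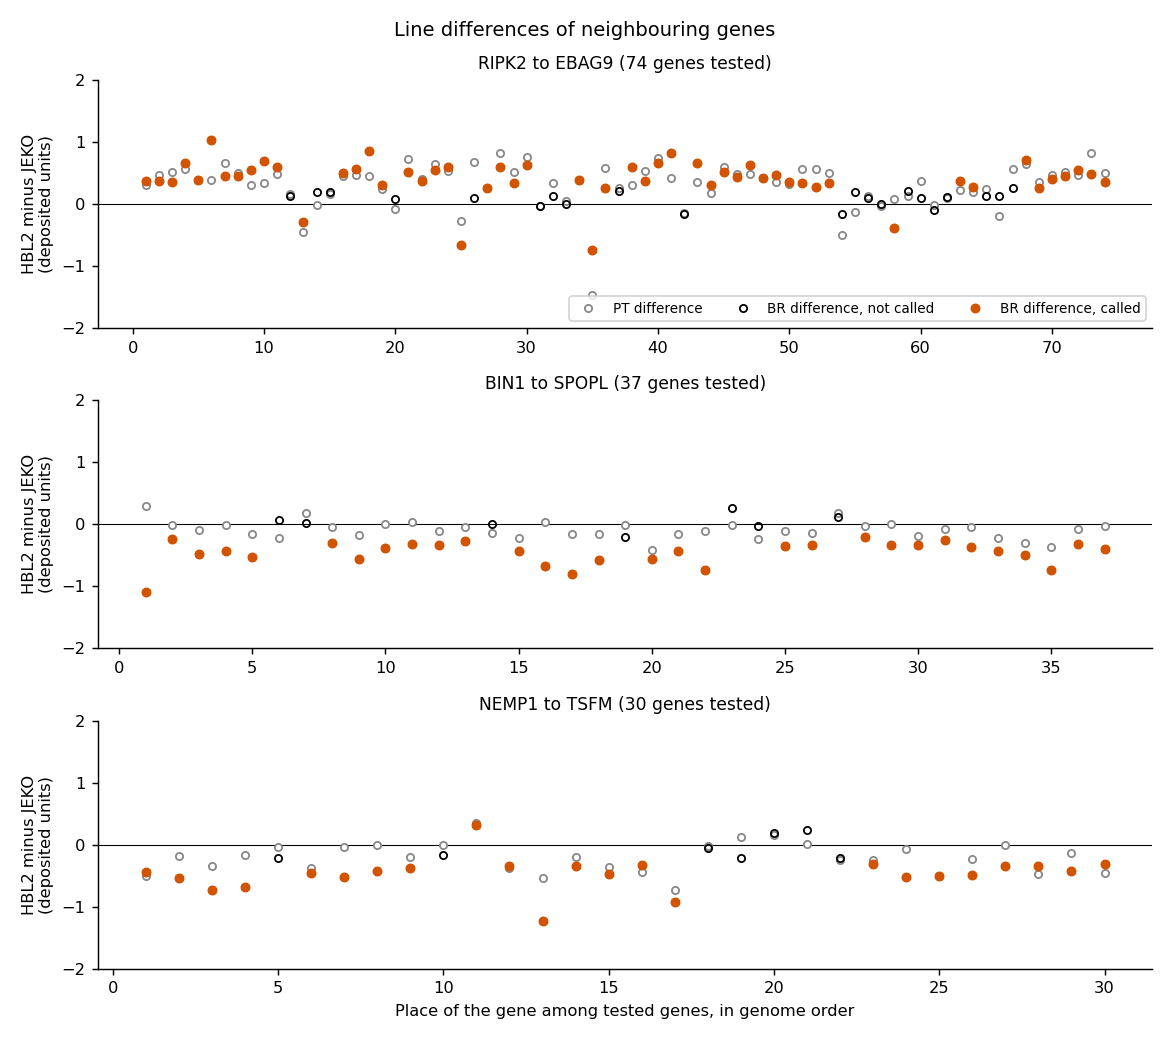
The HBL2 minus JEKO difference of each tested gene, in deposited units, against its place in genome order along 3 stretches, with open grey circles for PT, open black circles for BR where not called and filled orange circles for BR where called. From RIPK2 to EBAG9 the BR and PT circles both lie mostly above 0, and from BIN1 to SPOPL the orange circles lie below 0 while the grey ones lie near it.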

How the data were processed

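The 10 Affymetrix arrays were processed with MAS5, per the submitters' processing notes, which name no version. The authors deposited 1 value per probe set and array, handled here as a score because its scale is not stated, and sorted values were identical on each array. Depth does not apply to arrays, and their number, 3 HBL2 and 2 JEKO per state, limits the precision.

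Of 54675 probe sets, 62 were controls, and 41091 named exactly 1 gene in GEO's platform annotation, 1801 several and 11721 none. Probe sets at or above the 50th percentile on at least 2 arrays were kept, and the one with the highest mean over all arrays stood for each gene (14529 of 19775). The deposited values were fitted without a further log step with limma 3.58.1 in R 4.3.3, with 4 group means on 10 arrays, an intensity trend and Benjamini-Hochberg adjustment (6 residual and on average 9.89 prior degrees of freedom). The fit was also run on simulated data with known changes. Noise was drawn independently for each array, so effects shared within or between arrays were not covered. Means ± SE are from this fit. No batch label was given.

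Genes named are the 12 largest non-overlapping differences each way, 8 each of those that differed in BR and not in PT, that changed in size and that were called in PT but not in BR, 28 preset genes (2 not analysed here), up to 4 called members of each list, and members of neighbour runs. Exceptions are marked. Members and lists were chosen with earlier results of these data known, and lists are described by counts and medians, with no set test. XIST, chromosome Y genes and immunoglobulin variable segments (18 genes, 6 called) are not named. Promoters and gene order came from RefSeq tables of GRCh38.p14. Alternatives changed the filter, scale, probe sets, fit and arrays used.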

Additional observations from a re-analysis of the deposited data

Results flagged for a closer look

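The genes below were singled out because their line difference between the resistant cells differed from that between the PT cells in a direct test (limma, adjusted p below 0.05). Each value is the HBL2 BR minus JEKO BR difference less the HBL2 PT minus JEKO PT difference, in deposited units. They are the named genes among the 1266 of all genes called in that test.

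Among the named genes, some were called higher in JEKO BR and not called between the PT cells. The lowest values were -1.56 for TCL1A, -1.46 for SYTL1, -1.39 for BIN1, -1.33 for TNFSF8, -1.29 for CT55, -1.28 for WDR86 and -1.27 for NIBAN3. Next came -1.24 for SLC2A3, -1.18 for GPR183, -1.10 for HLA-DPA1, -1.01 for FCGR2B, -0.95 for HLA-DRB1, -0.90 for CD9 and -0.86 for CCR7. They were followed by -0.85 for S1PR4, -0.79 for NLRC5, -0.77 for HLA-DPB1, -0.72 for PDK1, -0.70 for HLA-DQB1, -0.67 for HLA-B and -0.67 for HLA-E. Then came -0.65 for HLA-DRA, -0.64 for HK1, -0.64 for MSMO1, -0.63 for HLA-C, -0.61 for CD7, -0.59 for HLA-DMA and -0.59 for SOCS2. The highest values were -0.55 for HLA-DMB, -0.53 for CSF2RB, -0.52 for PIK3CD, -0.41 for HRK and -0.37 for SPOPL. Under at least 1 alternative that kept all arrays the value was not called, or had the other sign, for HLA-DPA1, FCGR2B, CCR7, HLA-DPB1, PDK1, HLA-DQB1, HLA-B, HLA-DRA, HLA-C, CD7, HLA-DMA, SOCS2, HLA-DMB, PIK3CD, HRK and SPOPL.

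Other named genes were called higher in HBL2 BR and not called between the PT cells. The lowest values were 0.42 for PSMA4, 0.44 for WARS1, 0.49 for PSMD6, 0.54 for GSTP1, 0.63 for TNFRSF18, 0.63 for NFKBIZ and 0.77 for IFI44. The highest values were 1.05 for ANXA1, 1.12 for CTTN, 1.24 for LMO3, 1.54 for HNRNPLL, 1.63 for BCHE and 1.95 for OXCT1. Such an alternative ended the call for PSMA4, WARS1, TNFRSF18, NFKBIZ, IFI44, CTTN and BCHE.

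Another set was called in the same direction in both, with the wider difference between the resistant cells. The lowest values were -1.40 for FCMR, -1.34 for AFF3, -1.32 for FADS3, -1.16 for LINC00996, -1.05 for POU2AF1, -1.02 for TCL1B and -0.92 for LCK. Next came -0.83 for HLA-DRB4, -0.67 for NFATC1, -0.66 for LAX1, -0.55 for BNIP3, -0.52 for HLA-DOA, -0.47 for ZMAT3 and -0.47 for ZAP70. They were followed by -0.43 for SYK, -0.38 for STAT6, -0.36 for CXCR4, 0.46 for NLRP7, 0.65 for LHX2, 0.68 for CD38 and 0.93 for CDK6. The highest values were 0.96 for RGS13, 0.97 for MAGEA4 and 1.12 for CHI3L1. In this set the call was lost, or the sign turned, under such an alternative for AFF3, LCK, HLA-DRB4, NFATC1, HLA-DOA, ZMAT3, ZAP70, SYK, STAT6, CXCR4, NLRP7, LHX2, CDK6, RGS13 and MAGEA4.

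A smaller set was called in the same direction in both, with the narrower difference between the resistant cells. The values were -1.15 for CSTA, -0.75 for CCND2, -0.48 for BCL2, -0.35 for DHCR7, 0.32 for UBE2C and 1.06 for IGKC. A call lost or a sign turned in this way was found for CCND2, BCL2, DHCR7, UBE2C and IGKC.

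Some genes were called in opposite directions. The lowest values were -1.81 for CD52, -1.59 for CD180, -1.58 for S100A10, -1.56 for TYROBP, -1.27 for CCL4, -1.13 for ICAM3 and -0.92 for ITGAL. The highest values were -0.88 for INSIG1, -0.47 for PSMB8 and 2.18 for SMAD1. Such an alternative ended the call of INSIG1.

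The last set was called between the PT cells and not between the resistant cells. The lowest values were -1.41 for MYO1F, -1.34 for HLA-DQA1, -1.18 for COCH, -0.90 for N4BP2L1, -0.84 for RAP1GAP2, -0.77 for CD300A and 1.21 for KBTBD7. The highest was 1.41 for PCDH9. The call was lost, or the sign turned, in this way for HLA-DQA1, COCH, N4BP2L1, CD300A and KBTBD7.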

How the results depend on the processing

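Of 169 named genes called between the resistant cells, 140 kept direction and call under all alternatives run for them, and of 94 named differences of differences 44 did.

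The count of 4083 genes was 2444 to 4609 with 1 array left out, the PT count 1974 to 3610 and the count in the test of the difference 658 to 1473. The last was 1948 with array weights and 600 with the 5′ to 3′ gap of GAPDH as a covariate, an alternative chosen after seeing the data, where the first was 2891. Genes higher in HBL2 BR numbered 1 of MHC class I with the median over probe sets. Without probe sets that may bind several genes, 1 of MHC class II and 7 of the ATF4 list were higher in HBL2 BR and 3 of MHC class I were higher in JEKO BR, with fewer genes tested. With GAPDH as a covariate, 1 MHC class II and 5 proteasome core genes were higher in HBL2 BR. With 1 array left out, the proteasome core had 4 to 10 and the JAK-STAT list had 8 to 14 called in its main direction. Causes of these shifts were not tested.

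Reversed values came mainly from other probe sets. With their median, CCND1 was 1.10 between the resistant cells, and the difference of differences was 0.25 for CCND2, 0.0072 for CXCR4 and -0.18 for IGKC. Without probe sets that may bind several genes, CCND1 was 2.64 and HLA-DQB1 0.46, and the difference of differences was 0.27 for CD300A and -2.47 for IGKC. On percentile ranks it was -1.7 for LHX2 and -37.7 for NLRP7, in percentile points, and on normal scores -0.31 for NLRP7. Of 213 other probe sets of 111 named genes, 192 had the sign of the one used.

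For HBL2 BR and JEKO BR arrays of the same replicate number, correlations of deviations from the group mean were -0.0457 and 0.0687. The deviations of the JEKO BR arrays mirror each other, so these values cannot decide whether replicate numbers pair the arrays. Across all groups the correlations ran from -0.0636 to 0.136 for the same number, and from -0.202 to 0.155 for different numbers. With the replicate number as a block, 3993, 3187 and 1302 genes were called in the resistant, PT and difference tests.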

Other observations

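Among the genes called in opposite directions between the resistant and the PT cells, 3 members of the cell shape and adhesion lists are given here, picked after their values were seen. S100A10, a calcium-binding partner of annexin A2, was higher in HBL2 between the PT cells, by 1.06, and lower between the resistant cells, at -0.52. It read 2.26, 2.25 and 2.46 on the HBL2 PT arrays and 1.31, 1.46 and 1.55 on the HBL2 BR arrays, against 1.24 and 1.28 on the JEKO PT arrays and 1.87 and 2.04 on the JEKO BR arrays. The leukocyte adhesion genes ITGAL, the alpha chain of LFA-1, and ICAM3, a ligand of LFA-1, differed by 0.39 and 0.42 in PT and by -0.53 and -0.71 in BR.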
